A study of Mus musculus with 54 samples.

Results

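The genes analysed here encode the membrane fusion machinery of vesicles: the synaptotagmins, the SNARE proteins of the syntaxin, VAMP and SNAP families, and the complexins. All protein-coding genes whose symbol is Syt followed by a number, Cplx1 to Cplx4, Vamp1 to Vamp8, Stx with its number and an optional a or b, or Snap23, Snap25, Snap29 or Snap47 were taken. This gave 47 of the 47069 genes in the count table: 17 synaptotagmins, 15 syntaxins, 7 VAMPs, 4 complexins and 4 SNAPs. No measured value entered that choice.

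RNA-seq counts were available for cortex, striatum and cerebellum of 18 C57BL/6 mice at 8 weeks of age, with 1 library for each mouse and region. Of the mice, 10 were Mbd5+/GT (5 females and 5 males), carrying on 1 allele of Mbd5 an intronic gene trap insertion, present in all cells, that lowers its transcript without abolishing it, and 8 were WT (5 females and 3 males). There were 3 litters, the second of them with just 1 WT mouse beside 4 Mbd5+/GT mice. Litter 1 held only females and litter 2 only males, so leaving out litter 2 removes males alone. The comparisons ask which fusion genes each region uses, and whether reduced Mbd5 changes them.

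Libraries held 25295973 to 49027399 counts on genes, with a median of 29073866, and the 47 genes took 0.766% to 1.23% of them. Tested by edgeR (quasi-likelihood, Benjamini-Hochberg), Mbd5 was lower in Mbd5+/GT mice, with a log2 difference of −0.49 for cortex (adjusted p = 0.00012), −0.51 for striatum (adjusted p = 9.41e-05) and −0.34 for cerebellum (adjusted p = 0.00912). Neuron markers of the own region were low in 4 libraries. The library labelled cerebellum of Mbd5+/GT mouse M755 held 2.44% of the median cerebellar marker sum, that of WT mouse M754 30.1%, and the libraries labelled striatum of WT mice M754 and M761 held 7.47% and 17.3% of the striatal sum. Cortical libraries also held striatal markers, whose sum was between 277 and 2359 CPM (counts scaled to the size of the library), beside 276 to 349 CPM in cerebellum. Striatal libraries in turn held cortical markers at 170 to 1643 CPM, beside 858 to 2024 CPM in cortex. Results that rest on the 4 libraries low in own markers are given with and without them. In such bulk tissue, fewer cells of a type and less RNA per cell cannot be told apart.

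A vesicle fuses when a VAMP protein on its membrane zips together with a syntaxin and a SNAP-25 family protein on the target membrane into a SNARE complex. Synaptotagmins sense calcium through their C2 domains and trigger fusion at nerve terminals, and complexins clamp and assist the assembled complex. Most families have several paralogues, of which some act at the synapse and others at the Golgi, endosomes or lysosomes, and neurons differ in which of them they express.

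The coding sequences of the synaptic paralogues resemble each other, so the longest stretch that each pair shares is shown because a read that lies wholly inside it could belong to either gene. These are coding bases from the GENCODE M21 transcripts, written in lower case.
Cplx1 and Cplx2: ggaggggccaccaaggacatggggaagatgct
Syt1 and Syt2: gccaagaacctgaagaagatggatgt
Vamp1 and Vamp2: gaggtggtggacatcatg
The aligned coding bases were 80.8% identical between Cplx1 and Cplx2, 77.6% between Syt1 and Syt2 and 70.8% between Vamp1 and Vamp2. Identity between Snap25 and Snap23 was 69.9%. The longest shared run was 32 bases, in the complexins.

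The stretches just before the annotated transcription start of the genes that differed most between cerebellum and forebrain are shown next. They come from RefSeq promoter windows of build GRCm38.p6, and the output of single starts was not measured. Bases that an annotated exon of the gene covers were left out, and GGGCGG or its reverse complement CCGCCC, the GC box, stands in capitals. Stx1a and Cplx3 were lowest in cerebellum, and Syt2 and Syt9 highest.
Stx1a, chr5:135023232-135023481, plus strand: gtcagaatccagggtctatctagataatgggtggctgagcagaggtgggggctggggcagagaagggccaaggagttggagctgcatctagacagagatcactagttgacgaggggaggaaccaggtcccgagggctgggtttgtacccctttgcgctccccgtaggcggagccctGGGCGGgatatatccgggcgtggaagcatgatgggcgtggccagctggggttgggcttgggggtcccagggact
Cplx3, chr9:57606282-57606531, minus strand: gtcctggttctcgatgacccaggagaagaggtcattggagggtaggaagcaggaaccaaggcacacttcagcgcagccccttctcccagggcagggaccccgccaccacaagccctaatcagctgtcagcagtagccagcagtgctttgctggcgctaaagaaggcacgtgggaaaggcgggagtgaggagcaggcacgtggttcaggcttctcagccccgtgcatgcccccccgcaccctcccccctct
Syt2, chr1:134646362-134646611, plus strand: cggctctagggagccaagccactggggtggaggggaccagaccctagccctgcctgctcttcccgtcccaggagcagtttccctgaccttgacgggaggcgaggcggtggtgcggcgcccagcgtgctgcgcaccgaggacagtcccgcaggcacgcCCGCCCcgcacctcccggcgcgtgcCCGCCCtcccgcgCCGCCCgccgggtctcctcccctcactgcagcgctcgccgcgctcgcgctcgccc
Syt9, chr7:107370540-107370727, plus strand: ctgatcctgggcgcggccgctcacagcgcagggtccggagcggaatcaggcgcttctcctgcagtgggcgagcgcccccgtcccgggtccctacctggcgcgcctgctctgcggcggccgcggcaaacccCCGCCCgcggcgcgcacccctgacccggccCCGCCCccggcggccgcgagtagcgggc
The stretches of Stx1a and Cplx3 held 9 CpG each, against 30 in Syt2 and 29 in the 188 bases of Syt9. A second Syt2 window, not shown, held 22 CpG, and which start is used in cerebellum was not tested. Syt16, which was also low in cerebellum, held 30 in its window, so CpG number did not follow the regional order. Promoter windows were on hand for 35 of the 47 genes, and GGGCGG occurred on either strand in 27 of their 46 windows, or 58.7%, against 32.7% of all 32851 windows of the same length. The letters TGACGTCA were found in 0 of the 46 windows and in 1.55% of all windows. TATAAA was found in 2 of the 46 (4.35%) and in 12.4% of all. The E-box CAGCTG was found in 14 of the 46 (30.4%) and in 13% of all. The median number of CpG in the 250 bases was 14 in these windows and 6 over all. The windows of all genes were not limited to protein-coding ones, and some of the 46, such as those of Stx7, overlap each other. What part this has in the differences was not tested.

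Levels of different genes were compared per kilobase of exon. Snap25, the neuronal membrane SNARE that gives a pair of helices to the complex, had the highest level of all in cortex (393 ± 52.3 CPM per kb, SD, n = 18) and in cerebellum (394 ± 28.3). In striatum it had 238 ± 72.3 CPM per kb, beside 257 ± 44.1 for Cplx1, 255 ± 63.0 for Cplx2 and 252 ± 31.7 for Vamp2, an order that depends on the length taken. By the length of the longest transcript, Vamp2 led in striatum with 436 CPM per kb, before Snap25 (331), while Snap25 was still highest in cortex (547) and cerebellum (548). Vamp2, the vesicle SNARE of most synapses, made up 77.5% of the summed VAMP level in cortex, and 81.3% and 62.5% in striatum and cerebellum.

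Of the synaptotagmins, Syt1, the fast calcium sensor of most forebrain synapses, led in cortex with 194 ± 20.9 CPM per kb and was followed by Syt11, which does not act as a calcium sensor, with 146 ± 14.2. Syt11 led in striatum (167 ± 13.8) and cerebellum (121 ± 30, SD). Syt2, the fast sensor of brainstem and cerebellar synapses, stood at 10.1 ± 3.46 in cortex, 7.82 ± 3.33 in striatum and 66.9 ± 11.5 in cerebellum, beside 53.5 ± 9.57 for cerebellar Syt1. By the length of the longest transcript, Syt1 led in striatum instead (203 CPM per kb, Syt11 174), and cerebellar Syt1 stood above Syt2 (92.5 and 74.3), so neither order is fixed by these data. Syt11 led in cerebellum by either length. Syt7, a slow sensor of high calcium affinity, had 50.6 ± 7.04, 36.6 ± 8.30 and 48.4 ± 9.01 CPM per kb in cortex, striatum and cerebellum. Its log2 difference was 0.47 for cortex minus striatum (adjusted p = 4.96e-05, edgeR) and 0.41 for cerebellum minus striatum (adjusted p = 0.0002), both below a fold of 2.

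**Figure D1:**
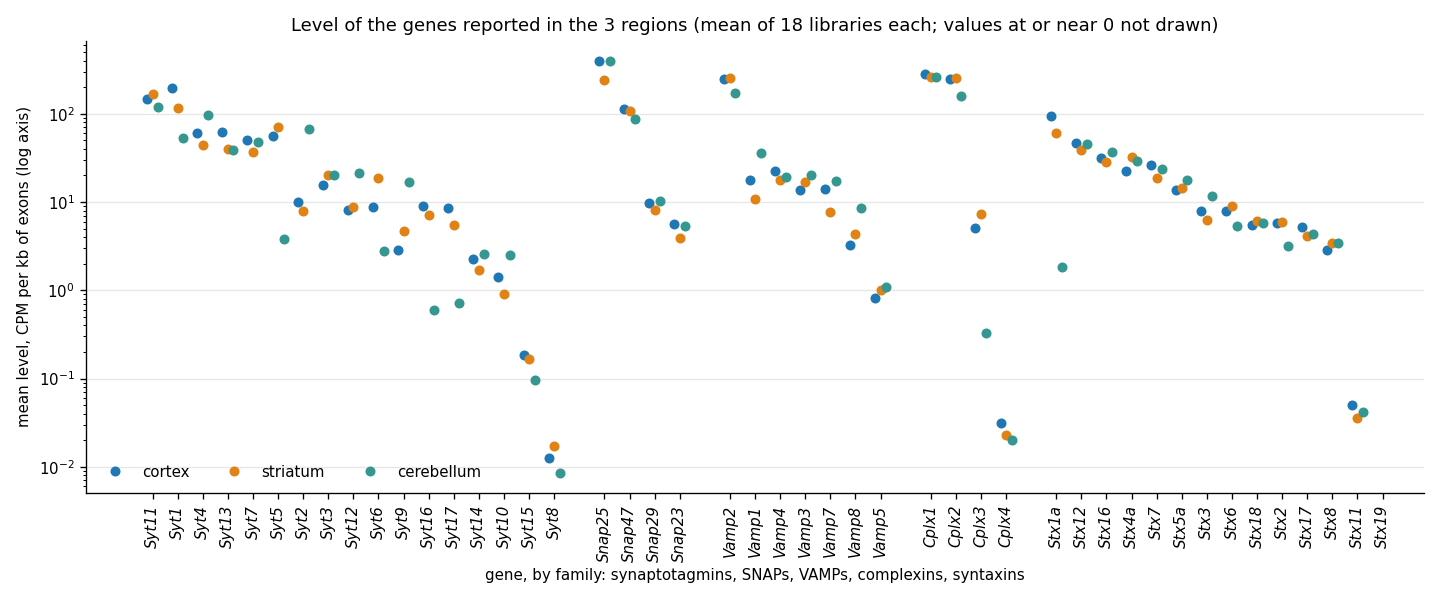
Mean level of the genes reported here in cortex, striatum and cerebellum, in CPM per kb of exons on a log axis, with genes grouped by family (n = 18 libraries per region). Snap25 is the highest point in cortex and cerebellum (393 and 394 CPM per kb), most genes have 3 points close together, and those of Stx1a, Syt5, Syt16, Syt17 and Cplx3 lie far lower in cerebellum than in the other regions.

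At the other end, Cplx4, Syt8 and Stx19 were at most 6 raw counts in any library and passed no filter. Stx11, a syntaxin of immune cells, had 1 to 14 raw counts and was not tested for genotype in striatum. Cplx4 is known from retinal ribbon synapses. Vamp5, a muscle VAMP, stood at about 1 CPM per kb in every region (0.809, 1.00 and 1.08 in cortex, striatum and cerebellum). The remaining 44 genes entered the comparison of regions.

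Cortex and striatum differed little in size but often in the test. Of the 44 genes tested, 31 had an adjusted p under 0.05 (edgeR's quasi-likelihood test, Benjamini-Hochberg over all genes), against 58.9% of all genes tested. With a fold of at least 2 in addition, 0 were higher in cortex (5.09% of all genes) and 1 was lower (4.03%), against 9.12% of all genes in either direction. This gene was Syt6, a synaptotagmin known from sperm acrosome exocytosis, with 30.3 to 87.4 CPM in cortex (median 47.4) and 39.3 to 190 in striatum (median 100). The ranges overlapped, and 13 of 18 striatal libraries lay above the highest cortical one. Without the libraries low in markers the striatal minimum was 68.1 CPM. Syt6 was lower in cortex by 1.08 on the log2 scale (SE 0.18, adjusted p = 1.09e-06), and by 1.14 without the libraries low in their own markers. In WT mice alone its log2 difference was −0.97, below the fold asked for, while Syt9 (−1.09) and Vamp7 (1.27) passed both thresholds there.

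Below a fold of 2, several core genes were higher in cortex than in striatum. Snap25 ranged from 2036 to 3331 CPM in cortex (median 2683) and from 937 to 2762 in striatum (median 1475). Its log2 difference was 0.76 (SE 0.087, adjusted p = 8.08e-10), and the groups overlapped only through the highest striatal libraries. Syt1 was higher by a log2 of 0.74 (SE 0.078, adjusted p = 1.37e-10), Vamp7, a SNARE of late endosomes and lysosomes, by 0.93 (SE 0.14, adjusted p = 2.08e-07), and Stx1a by 0.65 (SE 0.25, adjusted p = 0.0222). Cplx1, Cplx2 and Vamp2 had adjusted p-values of 0.306, 0.725 and 0.711.

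The cerebellum stood apart from both forebrain regions. Against cortex, 12 of the 44 genes differed by a fold of at least 2 with an adjusted p under 0.05 (edgeR's quasi-likelihood test), against 25.5% of all genes. Of these 5 were higher (9.04% of all genes) and 7 lower in cerebellum (16.5%). Against striatum, 14 of the 44 did, against 29.4% of all genes, with 7 higher (11.9%) and 7 lower (17.5%). At any fold, 34 and 35 of the 44 genes had an adjusted p under 0.05, beside 68.9% and 75.2% of all genes. The contrasts share the cerebellar libraries. The share of genes called was thus near that of all genes, and what follows describes which genes they were.

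Stx1a, a plasma membrane syntaxin of nerve terminals, had the largest difference. It was present at 151 to 334 CPM in cortex (median 247), 42.0 to 294 in striatum (median 159) and 1.66 to 20.1 in cerebellum (median 3.15). Every cerebellar library lay below every forebrain library. The level was 51.5-fold lower in cerebellum than in cortex (log2 −5.69, SE 0.31, adjusted p = 2.04e-22) and 32.8-fold lower than in striatum (log2 −5.04, SE 0.30, adjusted p = 6.61e-21). The highest cerebellar values were those of the libraries of M755 (20.1 CPM) and M754 (14.1 CPM), which were low in cerebellar markers. Without the libraries low in markers the cerebellar maximum was 5.50 CPM, and the folds were 74.6 and 45.8.

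The synaptotagmins Syt5, Syt16 and Syt17 were low in cerebellum as well. Syt5, a calcium-binding synaptotagmin, ranged from 93.2 to 172 CPM in cortex, 91.9 to 230 in striatum and 4.62 to 32.9 in cerebellum. It was 15.1-fold lower than in cortex (log2 −3.92, SE 0.19, adjusted p = 1.71e-24). Syt16, which lacks calcium-binding residues, fell from 69.0 to 102 CPM in cortex to 2.85 to 22.02 in cerebellum (log2 −3.95, SE 0.20, adjusted p = 1.00e-23). For both genes the cerebellar range did not reach the cortical or striatal one, and its upper end came from the library of M755. The cerebellar maxima without the libraries low in markers were 10.1 CPM for Syt5 and 6.82 CPM for Syt16. Syt17, also called B/K protein, was 11.8-fold lower than in cortex (log2 −3.56, SE 0.25, adjusted p = 1.86e-18). In striatum it spread widely, from 7.56 to 72.1 CPM, or to 55.8 CPM without the libraries low in markers.

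Cplx3, a complexin of retinal ribbon synapses and of deep cortical neurons, had 5.40 to 21.9 CPM in cortex (median 14.8), 1.77 to 43.8 in striatum (median 20.98) and 0.220 to 1.54 in cerebellum (median 0.899). No cerebellar library reached the lowest forebrain value. The log2 difference was −3.999 from cortex (SE 0.27, adjusted p = 1.23e-18) and −4.51 from striatum (SE 0.28, adjusted p = 2.22e-20). The striatal library with the least Cplx3, that of Mbd5+/GT mouse M764, also had the least Stx1a (42.0 CPM), Syt17 (7.56 CPM) and Syt13 (51.7 CPM), the highest sum of striatal markers (8922 CPM) and the lowest sum of cortical markers (170 CPM). What part tissue make-up has in these striatal ranges was not tested.

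Syt1 and Syt6 were lower in cerebellum to a smaller degree. Syt1 had 1275 to 1986 CPM in cortex, 719 to 1441 in striatum and 312 to 593 in cerebellum. The cerebellar range lay below the others, while those of cortex and striatum overlapped. The difference was 3.63-fold from cortex (log2 −1.86, SE 0.080, adjusted p = 8.75e-27) and 2.18-fold from striatum (log2 −1.12, SE 0.079, adjusted p = 2.39e-18). Syt6 had 9.16 to 43.2 CPM in cerebellum, with the highest value in the library of M755 and a maximum of 19.2 CPM without the libraries low in markers. It differed by a log2 of −1.69 from cortex (SE 0.18, adjusted p = 5.94e-12) and −2.77 from striatum (SE 0.19, adjusted p = 5.98e-19).

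Syt2 was higher in cerebellum. It ranged from 40.1 to 144 CPM in cortex (median 68.3), 13.2 to 111 in striatum (median 59.3) and 405 to 716 in cerebellum (median 488), so the cerebellar libraries lay above all others. It was 6.63-fold higher in cerebellum than in cortex (log2 2.73, SE 0.17, adjusted p = 6.88e-20) and 8.77-fold higher than in striatum (log2 3.13, SE 0.18, adjusted p = 5.80e-22). The log2 differences were 2.66 and 2.97 without the libraries low in markers.

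Syt9, another fast calcium sensor of limbic and striatal neurons, was also highest in cerebellum. Its range was 5.54 to 27.0 CPM in cortex, 9.60 to 43.7 in striatum and 18.4 to 83.4 in cerebellum. The overlap came from the cerebellar libraries of M755 (18.4 CPM) and M754 (36.1 CPM), and without the libraries low in markers the cerebellar minimum was 51.6 CPM. The difference from cortex was 5.97-fold (log2 2.58, SE 0.20, adjusted p = 1.24e-16) and that from striatum 3.58-fold (log2 1.84, SE 0.19, adjusted p = 3.47e-12).

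Syt12, a synaptotagmin without calcium binding, had 29.5 to 61.0 CPM in cortex (median 43.9), 29.01 to 68.5 in striatum (median 50.7) and 41.4 to 169 in cerebellum (median 126). The lowest cerebellar values, 41.4 and 68.5 CPM, were again those of M755 and M754. It was higher in cerebellum by a log2 of 1.41 against cortex (SE 0.13, adjusted p = 1.52e-14) and 1.29 against striatum (SE 0.12, adjusted p = 2.08e-13). Of its exon bases, 17.2% overlap A930001C03Rik on the other strand, and the strand setting of the counting is not given in the sources used here, so part of its counts could be those of that gene. The same limit holds for Stx18 (32.3% of exon bases), Syt4 (14.5%), Snap47 (11.6%), Syt6 (8.7%) and Syt7 (5.1%), whose exons also overlap genes of the other strand.

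Vamp1, the VAMP of fast and of spinal synapses, had 122.5 to 261 CPM in cortex (median 176), 45.1 to 214 in striatum (median 93.3) and 210 to 1216 in cerebellum (median 253). The cerebellar and cortical ranges overlapped, and the values of 1216 and 966 CPM came from the libraries of M755 and M754. Its log2 difference from cortex was 1.03 (SE 0.21, adjusted p = 1.83e-05), and 0.94 in Mbd5+/GT mice alone. Without the libraries low in markers it was 0.63 (SE 0.15, adjusted p = 0.000183), a 1.55-fold difference, and with the mouse as a block 0.88 (adjusted p = 0.000132), all below the fold asked for. Against striatum it was 1.77 (SE 0.21, adjusted p = 1.42e-10), and 1.40 without those libraries.

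**Figure D2:**
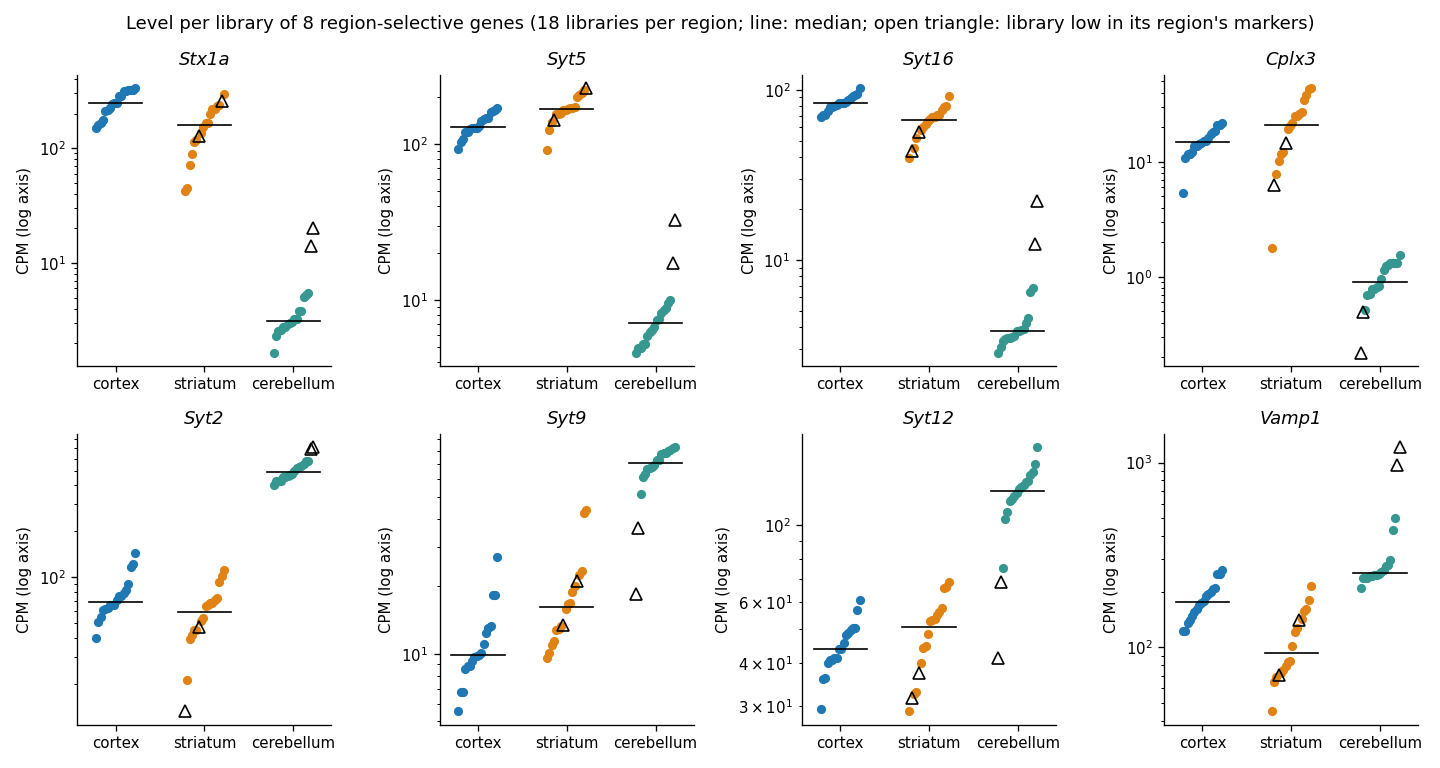
CPM per library (log axis) of Stx1a, Syt5, Syt16, Cplx3, Syt2, Syt9, Syt12 and Vamp1 in cortex, striatum and cerebellum, 18 libraries each, with the median as a line and libraries low in their own region's markers as open triangles. Stx1a lies at 1.66 to 20.1 CPM in cerebellum and above 42 CPM in every other library, and the triangles in cerebellum sit at the edge of the range for most genes.

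Among SNAREs of other compartments, Vamp8, an endosomal VAMP of secretory and immune cells, was higher in cerebellum than in cortex by a log2 of 1.42 (SE 0.13, adjusted p = 4.71e-14), with 8.53 to 29.9 against 5.88 to 11.1 CPM and little overlap. Vamp7 was higher than in striatum by 1.24 (SE 0.14, adjusted p = 2.70e-11), though by 0.92 in Mbd5+/GT mice alone, below the fold asked for. Also higher than in striatum were Syt4, a synaptotagmin of dense-core vesicles that is induced by activity, by 1.18 (SE 0.085, adjusted p = 5.76e-18) and Syt10 by 1.46 (SE 0.26, adjusted p = 1.46e-06). Syt10 is known for IGF-1 secretion and was low throughout, from 0.382 to 9.33 CPM. Without the libraries low in markers, Syt15 passed both thresholds as lower in cerebellum than in cortex (log2 −1.17) in place of Vamp1, and Stx2, Stx3, Syt15 and Vamp8 joined the 14 genes against striatum. The syntaxins of the Golgi and endosomes differed less, with log2 differences between cerebellum and cortex of 0.35 for Stx5a, −0.58 for Stx6, −0.15 for Stx7, −0.040 for Stx12 and 0.24 for Stx16.

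Ratios of paralogues within a library need no scaling for depth and were compared within mice by exact sign-flip permutation tests over 262144 sign patterns, 12 tests in all. The share of Syt2 in Syt1 plus Syt2, per kb, was 2.37% to 8.05% in cortex (mean 4.92% ± 1.45, SD, n = 18), 1.44% to 12.2% in striatum (6.45% ± 3.08) and 49.7% to 71.5% in cerebellum (55.5% ± 6.46). By the length of the longest transcript the means were 3.22%, 4.26% and 44.6%, so the level of the share depends on the length taken. The cerebellar share was higher in 18 of 18 mice against either region (p = 7.6e-06, the smallest the test can give, adjusted p = 1.53e-05), while cortex and striatum did not pass (exact p = 0.176, adjusted p = 0.192).

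The other ratios moved less. Vamp1 made up 6.79% ± 1.49 of Vamp1 plus Vamp2 in cortex, 4.22% ± 2.07 in striatum and 17.3% ± 12.1 in cerebellum, higher in cerebellum in 18 of 18 mice against either region (exact permutation, adjusted p = 1.53e-05). The cerebellar mean was 13.5% ± 4.5 without the libraries low in markers. Cplx1 made up 53.3% ± 4.18 of Cplx1 plus Cplx2 in cortex, beside 50.6% ± 7.60 for striatum and 60.4% ± 10.5 for cerebellum. The cerebellar share exceeded the cortical one in 13 of 18 mice (exact permutation, adjusted p = 0.00653) and the striatal one in 16 of 18 (adjusted p = 0.000529, exact). Its cerebellar mean was 57.2% ± 4.82 without the libraries low in markers. Snap25 held 75.0% ± 2.58 of the SNAP level in cortex, 65.6% ± 6.06 in striatum and 79.5% ± 2.396 in cerebellum, lower in striatum than in cortex in 18 of 18 mice (exact permutation, adjusted p = 1.53e-05). The second SNAP throughout was Snap47, which is not confined to synapses, with 114, 108 and 86.7 CPM per kb in cortex, striatum and cerebellum. The broadly expressed Snap23 and Snap29 stayed at 10.3 CPM per kb or less.

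**Figure D3:**
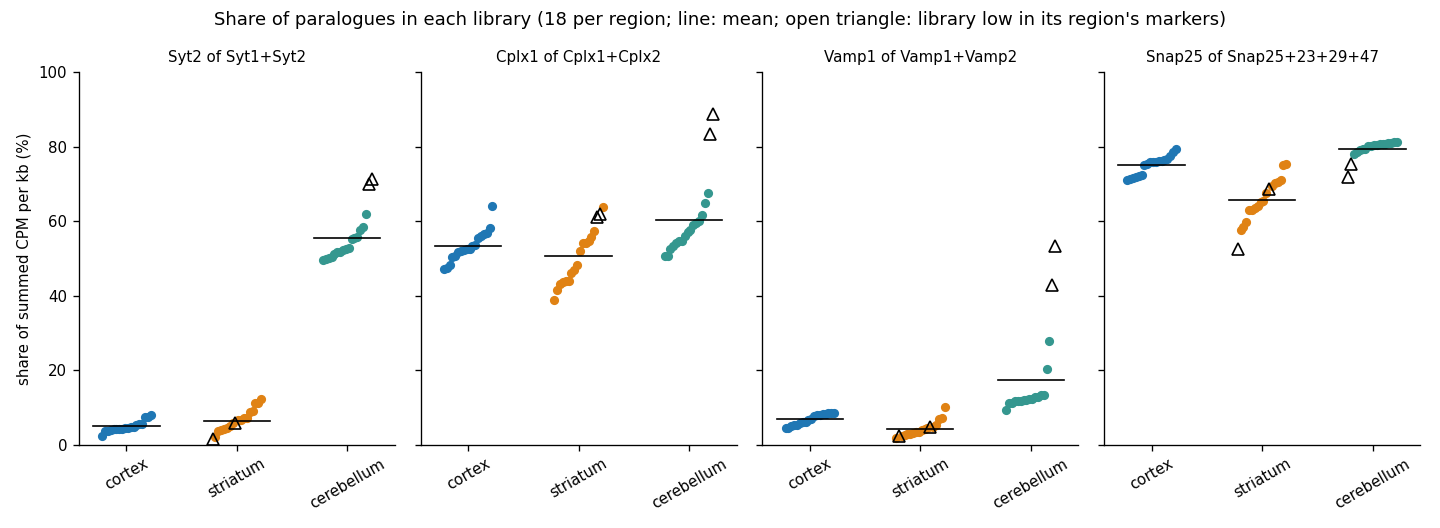
Share of 1 paralogue in the summed level of its group, in percent of CPM per kb, for each of 18 libraries per region, with the mean as a line and libraries low in their own region's markers as open triangles. Syt2 rises from 4.92% in cortex to 55.5% in cerebellum, and for Cplx1 and Vamp1 the highest cerebellar points are triangles.

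Between genotypes, no fusion gene passed the test in any region. By edgeR (quasi-likelihood, Benjamini-Hochberg), 0 of 44 genes in cortex, 0 of 43 in striatum and 0 of 44 in cerebellum had an adjusted p under 0.05, beside 0.0107%, 0.00539% and 0.00551% of all genes. DESeq2 also gave 0 in every region, and 7, 9 and 3 at an unadjusted p under 0.05, without a share over all genes to set beside them. With edgeR, at an unadjusted p under 0.05 there were 7 of 44 in cortex (8.47% of all genes), 8 of 43 in striatum (7.44%) and 3 of 44 in cerebellum (2.75%). None of these 18 results stayed under that threshold in every alternative tried. The log2 difference had a median size of 0.034 (cortex), 0.093 (striatum) and 0.028 (cerebellum), against 0.063, 0.081 and 0.042 over all genes tested.

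Syt12 was the gene with an unadjusted p under 0.05 in every region. In cortex it ranged from 40.0 to 61.0 CPM in WT (median 42.6) and from 29.5 to 56.9 in Mbd5+/GT mice (median 46.1). In striatum the ranges were 31.8 to 68.5 (median 49.2) and 29.01 to 66.2 (median 50.7), and in cerebellum 68.5 to 169 (median 130) and 41.4 to 150.0 (median 122.8). The groups overlapped almost wholly, and the medians of cortex and striatum were not lower in Mbd5+/GT mice. The fitted log2 difference with surrogate variables was −0.11 in cortex (SE 0.045, unadjusted p = 0.0201, adjusted p = 0.491, edgeR), −0.18 in striatum (SE 0.076, unadjusted p = 0.0308, adjusted p = 0.639) and −0.11 in cerebellum (SE 0.051, unadjusted p = 0.0386, adjusted p = 1.00). Without surrogate variables it was −0.045 (unadjusted p = 0.696), −0.089 (0.612) and −0.050 (0.801), and the exact permutation tests on the log2 CPM gave p = 0.632, 0.689 and 0.847. Values within litters, here and below, are differences of mean log2 CPM without a model, unlike the fitted ones. For litters 1, 2 and 3 they were −0.068, 0.056 and −0.13 in cortex. In striatum they were −0.21, −0.39 and −0.018, and in cerebellum 0.086, −0.31 and −0.43.

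In cortex, Syt6 had the smallest unadjusted p. It ranged from 38.4 to 87.4 CPM in WT (median 57.8) and from 30.3 to 70.6 in Mbd5+/GT mice (median 40.9). Of the Mbd5+/GT libraries, 9 of 10 lay below the WT mean, though the ranges overlapped. The log2 difference was −0.45 (SE 0.13, unadjusted p = 0.00456, adjusted p = 0.392, edgeR), and −0.58, −0.80 and −0.32 within litters 1, 2 and 3. Without litter 2 the unadjusted p was 0.0665. The balance of striatal against cortical markers, as a log2 ratio, had a median of −0.13 in WT cortex and −0.93 in Mbd5+/GT cortex. Over the 18 cortical libraries Syt6 followed that balance with Pearson's r = 0.67 (permutation p = 0.00314, adjusted p = 0.0471 over 15 such relations) and Spearman's rho = 0.57 (permutation p = 0.016, adjusted p = 0.204), and with r = 0.75 without the 2 libraries farthest from the median balance. Within genotypes r was 0.47 in Mbd5+/GT and 0.75 in WT mice. The 15 relations were those of genes picked for an unadjusted p under 0.05 for genotype in the same libraries. The permutations ran over both genotypes together, so their p-values are not independent of that choice. The part of tissue make-up in the genotype difference was not tested.

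Cplx2, the complexin of excitatory forebrain neurons, also had an unadjusted p under 0.05 in cortex. It had 1134 to 1404 CPM in WT (median 1309) and 806 to 1350 in Mbd5+/GT cortex (median 1139). Its log2 difference was −0.21 (SE 0.073, unadjusted p = 0.00929, adjusted p = 0.437, edgeR), with −0.29, −0.19 and −0.17 within the litters, and −0.19 with an unadjusted p of 0.0522 without surrogate variables. In cerebellum the difference of Cplx2 was −0.15 (SE 0.062, unadjusted p = 0.0226, adjusted p = 1.00). There it was 0.14, −0.41 and −0.40 within litters 1, 2 and 3, so litter 1 went in the opposite direction. The remaining cortical genes were Snap29, which acts in autophagosome and endosome fusion (−0.12), Vamp1 (0.16), Syt9 (0.43) and Stx3, a syntaxin of photoreceptor terminals and of epithelia (0.12), with adjusted p-values of 0.519, 0.565, 0.551 and 0.537.

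Of the striatal genes with an unadjusted p under 0.05, 4 were higher (4.24% of all genes) and 4 lower (3.2%) in Mbd5+/GT mice. Snap25 ranged from 937 to 1801 CPM in WT (median 1389) and from 1018 to 2762 in Mbd5+/GT mice (median 1621). The groups overlapped over most of the WT range, and the highest values were those of Mbd5+/GT mice. The fitted log2 difference was 0.21 (SE 0.094, unadjusted p = 0.0371, adjusted p = 0.643, edgeR), and 0.15 (unadjusted p = 0.19) without the libraries low in markers. Taken without a model, the difference of mean log2 CPM was 0.34, and 0.31, 0.31 and 0.40 within the litters. The balance of striatal against cortical markers had a median of 2.28 in WT and 1.59 in Mbd5+/GT striatum. Over the 18 striatal libraries Snap25 had r = −0.51 with it (permutation p = 0.0319, adjusted p = 0.231 over the 15 relations) and rho = −0.47 (permutation p = 0.049, adjusted p = 0.204), and r = −0.48 without the 2 libraries farthest from the median balance. Within genotypes r was −0.70 in Mbd5+/GT and −0.47 in WT mice. The part of tissue make-up in this difference was not tested. Vamp7 was 9.79 to 30.4 CPM in WT (median 12.3) and 12.8 to 30.9 in Mbd5+/GT striatum (median 24.0). Its fitted log2 difference was 0.34 (SE 0.14, unadjusted p = 0.0316, adjusted p = 0.642, edgeR). It was 0.23 (unadjusted p = 0.174) without the libraries low in markers and 0.019 (0.924) without litter 2. Both of these fits estimated the surrogate variables anew. Without a model, the difference of mean log2 CPM was 0.60 (exact permutation p = 0.0286), and 0.84, 0.67 and 0.50 within litters 1, 2 and 3. Vamp7 is annotated on the scaffold GL456233.1 in this build, and litter 2, left out above, held only males. Vamp4, a SNARE of the trans-Golgi network, and Syt4 differed by 0.15 and 0.17 (adjusted p = 0.643 for both).

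Syt15, a synaptotagmin without calcium binding, had the smallest unadjusted p in striatum. It was 0.649 to 1.68 CPM in WT and 0.512 to 0.848 in Mbd5+/GT mice, from 14 to 52 raw counts. All 10 Mbd5+/GT libraries lay below the WT mean. The log2 difference was −0.72 (SE 0.20, unadjusted p = 0.00247, adjusted p = 0.629, edgeR), and it was −0.70, 0.073 and −0.72 within litters 1, 2 and 3. Stx6 and Stx4a, syntaxins of the trans-Golgi network and of the plasma membrane, had −0.10 and −0.14 (adjusted p = 0.630 and 0.660). In cerebellum Syt13, which binds no calcium, had −0.11 (SE 0.044, unadjusted p = 0.0177, adjusted p = 1.00). Without litter 2, where the surrogate variables were estimated anew from the remaining mice, 0 of the striatal genes kept an unadjusted p under 0.05.

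**Figure D4:**
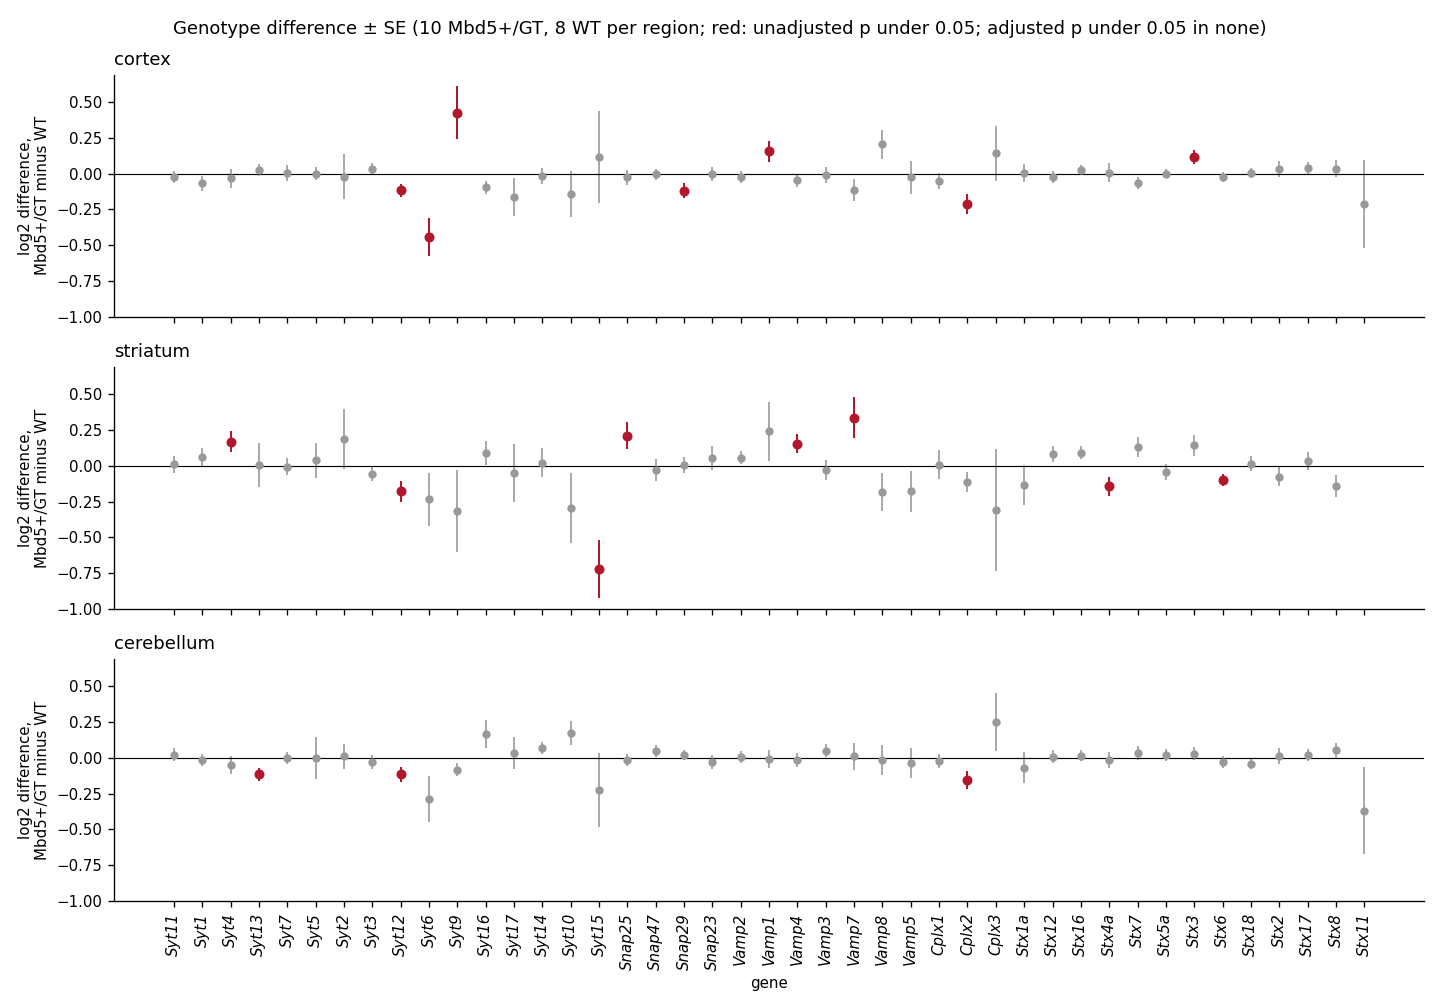
Log2 difference between 10 Mbd5+/GT and 8 WT mice for the genes reported here, with its SE, in cortex, striatum and cerebellum, with genes of an unadjusted p under 0.05 in red. The red points number 7, 8 and 3, Syt12 is red in every region at −0.11, −0.18 and −0.11, and no gene has an adjusted p under 0.05.

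**Figure D5:**
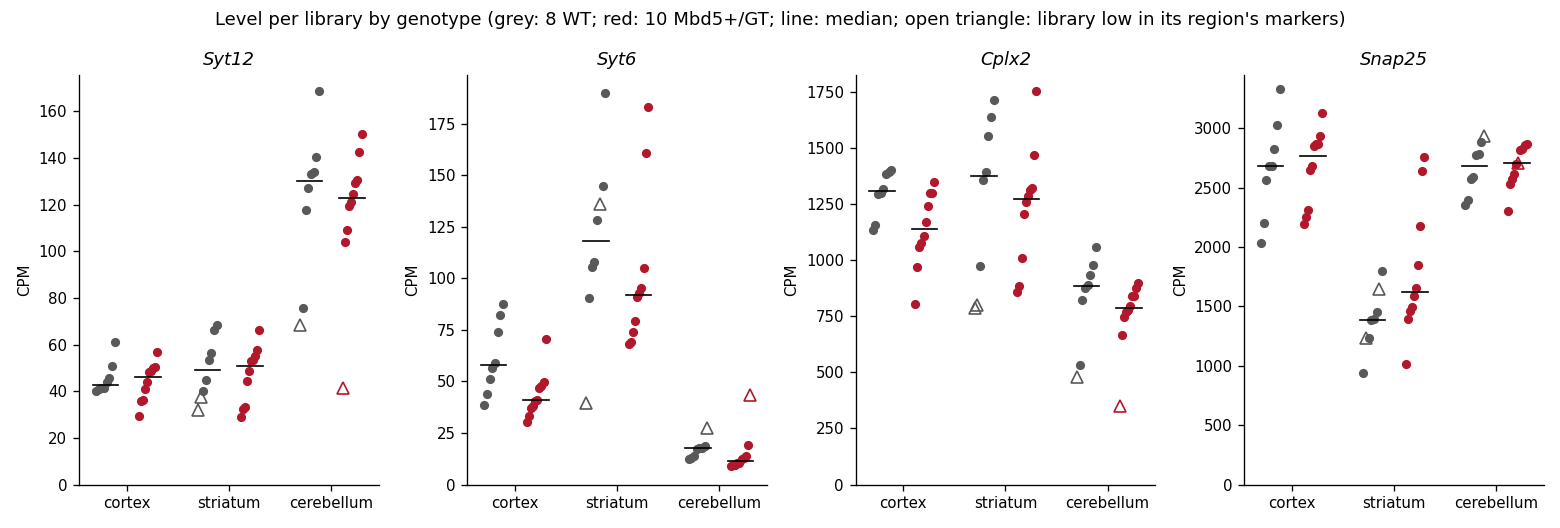
CPM per library of Syt12, Syt6, Cplx2 and Snap25 by region, for 8 WT (grey) and 10 Mbd5+/GT mice (red), with the median as a line and libraries low in their own region's markers as open triangles. The genotypes overlap in every panel, with medians of 57.8 and 40.9 CPM for cortical Syt6 and 1389 and 1621 CPM for striatal Snap25.

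The remaining core genes gave small differences with wide overlap. Stx1a differed by 0.0063, −0.13 and −0.068 in cortex, striatum and cerebellum, Syt1 by −0.068, 0.061 and −0.014, and Syt2 by −0.021, 0.19 and 0.011 on the log2 scale, with unadjusted p-values of 0.213 or more. The paralogue shares gave the same picture, since 0 of 12 exact permutation tests over 43758 splits had an adjusted p under 0.05. The Snap25 share in striatum, 62.4% in WT and 68.3% in Mbd5+/GT mice, came nearest (exact p = 0.0373, adjusted p = 0.447).

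The genotype effect itself was compared between regions as an interaction term. At an adjusted p under 0.05, 0 of 44 genes differed between any pair of regions (edgeR, 0% of all genes), and DESeq2 gave 0 as well. At an unadjusted p under 0.05, 5 genes differed between cortex and striatum (4.22% of all genes), 0 between cortex and cerebellum (1.11%) and 2 between striatum and cerebellum (2.68%). For cortex minus striatum these were Stx7, a syntaxin of late endosomes (−0.32), Vamp7 (−0.73), Vamp4 (−0.27), Snap29 (−0.18) and Snap25 (−0.38), each with an adjusted p of 0.989 (edgeR). For striatum minus cerebellum they were Snap25 (0.37) and Vamp7 (0.63), each with an adjusted p of 0.995. These contrasts share the striatal libraries.

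Related genes of the same machinery were counted from lists chosen with the families. Of 22 regulators of SNARE assembly, such as the Munc18 and Munc13 proteins, 9 differed between cerebellum and cortex by a fold of at least 2 (5 higher and 4 lower, edgeR), of 23 vesicle and active zone genes 4 did, all lower, and of 12 other SNAREs 0 did, where 25.5% of all genes did. Leaving out the libraries low in markers gave 9, 6 (1 higher and 5 lower) and 0. The 25.5% belongs to the fit with all libraries, and the share of all genes without those libraries is not given. Unc13d, a Munc13 of secretory cells, was higher in cerebellum by a log2 of 2.69 (SE 0.17, adjusted p = 6.69e-20), and Doc2a, a calcium sensor of spontaneous and asynchronous release, was lower (−3.20, SE 0.50, adjusted p = 1.95e-07). The difference of Doc2a was −4.88 (SE 0.37, adjusted p = 1.27e-16), or 29.4-fold, without the libraries low in markers. Unc13b, a Munc13 of forebrain synapses, was lower (−2.04, SE 0.11, adjusted p = 3.38e-22), as was Rimbp2, an active zone protein that tethers calcium channels (−3.81, SE 0.22, adjusted p = 2.39e-21). Between genotypes, 0 genes of these lists had an adjusted p under 0.05 in any region, by edgeR.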

How the data were processed

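RNA-seq of 54 libraries, from 3 brain regions of 18 mice, gave raw read counts per gene as deposited by the authors. Per the labels' processing notes, FastQC 0.10.1, STAR 2.4.2 and build GRCm38 were used, and the strand setting of the counting is not given in the sources used here. ERCC spike-ins, 92 rows, were left out. Counts were normalised by TMM and tested with edgeR 4.0.16 in R 4.3.3 (quasi-likelihood, robust) over all genes that exceeded 4 counts in 8 or more libraries, with Benjamini-Hochberg adjustment over all of them. Genotypes were compared within regions with 2 (cerebellum) or 4 (cortex, striatum) surrogate variables from sva 3.50.0, after the study's methods. Regions, and the difference of genotype effects between them, were compared in 1 fit over 54 libraries, where a call also needed a fold of at least 2. CPM values are scaled by the TMM library size, and the values per kb use the union of GENCODE M21 exons, whose identifiers matched 46574 of 47069 rows. Paralogue shares were tested by exact permutation, two-sided. The scripts were tested on simulated data.

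Libraries with the same mouse number come from the same animal, which is where the pairing comes from. Deviations of the same mouse correlated with a median r of 0.164 between cerebellum and cortex, 0.062 between cerebellum and striatum and 0.091 between cortex and striatum. The mouse as a block was tried as an alternative in the comparison of regions, and the shares were compared within mice. Each mouse is a separate animal, but some share a litter.

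The genes, lists and tests were chosen with earlier results of these data known. An item is not reported here, though the counts of genes include it. Named with values were the other core release genes, the 5 largest calls in each direction and region contrast, every gene with an unadjusted p under 0.05 for genotype or for a difference of genotype effects, and genes that passed no filter. Others named by value were chosen after their values were seen. Alternatives were DESeq2 1.42.0, its size factors, other filters, no surrogate variables, litter and sex as covariates, a mouse block, either genotype alone, and samples without litter 2, without 2 repeated libraries or, added after seeing the data, without 4 libraries low in own markers, meaning under the region's median sum divided by 3. Single-value permutation tests and differences within litters used log2(CPM + 0.05), the latter without surrogate variables. Genotype fits on fewer libraries estimated the surrogate variables anew. Both repeated libraries are striatum of WT males.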

Additional observations from a re-analysis of the deposited data

Results flagged for a closer look

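In 25 of 114 groups of a gene or share, region and genotype, 1 library lay farther from the others than Dixon's 95% critical value allows. That value is set for about 1 in 20 independent groups of normal values. These groups share libraries and genes, so their number cannot be measured against it. They fell on 9 libraries.

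The library labelled cerebellum of Mbd5+/GT mouse M755, which was low in cerebellar neuron markers, stood apart in 12 of them. Its shares were 88.9% for Cplx1 in Cplx1 plus Cplx2, 53.4% for Vamp1 in Vamp1 plus Vamp2 and 71.8% for Snap25 among the SNAPs. It was high in Cplx1 (1241 CPM), Vamp1 (1216 CPM), Stx1a (20.1 CPM) and Snap47 (380.6 CPM). It was low in Syt7 (174.9 CPM), Syt9 (18.4 CPM), Syt12 (41.4 CPM), Cplx2 (350.2 CPM) and Vamp2 (398 CPM).

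The library labelled cerebellum of WT mouse M754, also low in those markers, stood apart in 6. Its shares were 70.0% for Syt2 in Syt1 plus Syt2 and 75.5% for Snap25. It was high in Cplx1 (1077 CPM), Vamp1 (966 CPM), Stx1a (14.1 CPM) and Snap47 (333.6 CPM).

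The others were single values. Snap29 was low in cortex of Mbd5+/GT mouse M763 (26.4 CPM) and of WT mouse M757 (28.1 CPM), and high in striatum of M757 (31.6 CPM). Syt9 was high in striatum of Mbd5+/GT mouse M758 (43.7 CPM) and of WT mouse M762 (42.4 CPM). Syt2 was high in cortex of WT mouse M751 (143.8 CPM). Snap47 was high in striatum of WT mouse M761 (406.7 CPM), a library low in striatal markers.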

How the results depend on the processing

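Counts of genes at an unadjusted p under 0.05 between genotypes moved most, and the cause was not tested. Shares over all genes are not given for the alternatives. The counts therefore do not show whether the fusion genes changed more than other genes. In cortex the count of 7 became 1 without surrogate variables and 2 with litter and sex as covariates. In striatum the count of 8 became 4 with no filter, 2 with at least 10 counts in every library, 4 without surrogate variables, 0 without litter 2, 3 without the repeated libraries and 5 without the libraries low in own markers. In cerebellum the count of 3 became 0 without surrogate variables, 0 with litter and sex, and 1 without litter 2. At an adjusted p under 0.05 it was 0 in every alternative run. Without the libraries low in own markers, the unadjusted count of differing genotype effects was 8 in place of 5 between cortex and striatum, and 1 in place of 2 between striatum and cerebellum. Between cortex and striatum, WT mice alone gave 2 calls in place of 1, and Mbd5+/GT mice alone 17 genes in place of 31 at any fold. Mbd5+/GT mice alone lost Vamp1 between cerebellum and cortex (Syt15 joined) and Vamp7 between cerebellum and striatum (Vamp8 joined).

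The Cplx1 share between cortex and striatum differed by 4.5 points without the libraries low in own markers (exact permutation, adjusted p = 0.0284). Between cerebellum and cortex it differed by 8.11 points in WT and 6.26 points in Mbd5+/GT mice alone, neither past the threshold. Genotype differences in shares, none past the threshold, changed sign to −0.9 points (Cplx1, striatum, without the repeated libraries), 1.94 (Vamp1, cerebellum, without litter 2) and −0.43 (Snap25, cortex, without litter 2).

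With the replicate block of mouse, the calls were 11 in place of 12 between cerebellum and cortex (Vamp1 fell below a fold of 2 at a log2 of 0.88), 14 between cerebellum and striatum and 1 between cortex and striatum, and the block changed no other call. Fits that leave out single mice in turn were not run. Genes at 6 or fewer raw counts could not be tested at this depth.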
